A study of Mus musculus with 10 samples.

Results

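Elastic fibre genes were compared between cultured fibroblasts of normal mouse lung and fibroblasts labelled as carcinoma-associated (CAF), which is the stromal cell found within carcinomas. The 10 listed genes were Eln, Fbn1, Fbn2, Fbln1, Fbln2, Fbln5, Efemp2, Mfap2, Mfap4 and Mfap5, listed by name, with no threshold on their values. Of these, 8 were matched to a probe set that names a single gene, among 18193 genes measured this way. Fbn1 and Efemp2 were not analysed here. Where a gene had several probe sets, the one whose mean across the 10 arrays was highest stood for it, and its other probe sets served as a check.

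Elastic fibres give lung and arteries their recoil. Elastin forms the core, which is laid down on a scaffold of fibrillin microfibrils, guided by fibulins and microfibril-associated proteins and cross-linked by lysyl oxidases. In lung, fibroblasts and smooth muscle cells are known makers of elastin.

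There were 5 arrays of normal lung fibroblasts and 5 of CAF, hybridised with labelled total RNA on Affymetrix Mouse430_2 arrays. Cells of both kinds came from the lungs of mice, were kept in culture with 10% serum for 10 to 14 days, and were replated on the day before RNA was taken. Strain, age, sex and tumour model are not given in the sources used here. Arrays are titled as biological replicates, but no label ties an array to its own animal, so p-values measure the spread between these cultures. The description codes of normal replicates 1 to 3 begin with vs, and those of normal replicates 4 and 5 and of all CAF with ls. The labels do not say what these prefixes mean.

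The cultures carried bright fibroblast markers and also markers of other cells. Over the 12 fibroblast markers, led by Col1a2, Vim and Col1a1, the mean log2 value per array ran from 11.8 to 13.5 in the normal group and from 11.5 to 13 in CAF. The 10 macrophage markers, led by Lyz2, C1qb and C1qa, ran from 9.39 to 12.9 and from 10.3 to 12.9. The 5 mesothelial markers, led by Upk1b, Upk3b and Wt1, ran from 5.87 to 11.6 in normal and from 7.21 to 10.0 in CAF. The 11 markers of smooth muscle and pericytes, led by Cnn1, Actg2 and Des, ran from 8.75 to 9.70 and from 9.35 to 9.79. Epithelial markers (8, led by Krt18, Krt8 and Epcam) ran from 6.72 to 7.95 and from 6.44 to 7.61. Endothelial markers (7, led by Kdr, Cldn5 and Pecam1) and lymphocyte markers (4 of 5 measured, led by Cd3e, Cd79a and Ms4a1) stayed between 5.96 and 6.24 in both groups. These list means lay below the median over all probe sets on every array, 6.73 to 6.80, and no detection call is given. In none of these 7 marker lists did a gene pass the test between the groups in limma; the share of all genes at an unadjusted p under 0.05 was 22.3%. At that level stood 3 of 11 smooth muscle and pericyte genes, all higher in CAF, and 9 of the 11 differences were positive (median 0.27). Endothelial genes had 1 higher and 3 lower of 7. Lower in CAF at that level were 2 of 8 epithelial, 1 of 5 mesothelial and 2 of 4 lymphocyte genes, and all 5 mesothelial differences were negative (median -0.48). Macrophage and fibroblast genes had 0 at that level, with 9 of 10 macrophage differences positive (median 0.35) and 8 of 12 fibroblast differences negative (median -0.27). The part of these markers in the members' differences was not tested. Fewer cells of a type and less RNA per cell cannot be told apart in such bulk RNA, nor, for dim markers, from signal near background.

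The question was whether genes of the elastic fibre are expressed differently in CAF and normal lung fibroblasts. None of the 8 measured members passed the test across all genes (limma adjusted p from 0.0598 to 0.819, threshold 0.05), against 0.753% of all genes that did, 0.561% higher and 0.192% lower in CAF. Only Eln had an adjusted p up to 0.1, as did 6.39% of all genes. At an unadjusted p under 0.05 there were 2 members, Eln and Mfap4, both lower in CAF, and the same share over all genes was 22.3% in either direction and 11.8% lower in CAF. An exact Wilcoxon test, whose smallest possible p at 5 arrays per group is 0.00794, called 0 genes. Its lowest adjusted p over all genes was 0.111, with 3184 genes at an unadjusted p under 0.05, 2 of them members. Of the 8 differences 7 were negative and 1, that of Mfap5, was positive. Their median was -0.28 on the log2 scale, beside a median of -0.04 over all genes, of which 57.3% were negative. The SD was larger in the normal group for 5 of the 8 members and for 71.1% of all genes.

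Elastin itself read lower on every CAF array than on any normal array. The normal arrays had log2 values of 7.68, 8.07, 7.53, 7.71 and 7.75 for Eln in replicate order, and the CAF arrays 7.26, 7.43, 7.24, 7.28 and 7.25. The 5 CAF values lay close together, and the highest of them was below the lowest normal value. The means were 7.75 ± 0.20 and 7.29 ± 0.08 (SD, n = 5 per group), so the signal was 1.37-fold higher in normal fibroblasts (CAF minus normal -0.46 ± 0.10 SE, 95% confidence interval -0.67 to -0.24, limma adjusted p = 0.0598). Over all genes, 7.16% had groups that did not overlap, 4.19% with CAF below normal, and Eln was the only 1 of the 8 members with this pattern.

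The second probe set of Eln gave the same order. Its normal values were 6.98, 7.62, 6.74, 6.76 and 7.40 and its CAF values 6.31, 6.60, 6.56, 6.54 and 6.30, again without overlap. The difference was -0.64 ± 0.17 (limma adjusted p = 0.0858 over all probe sets). The CAF mean of this probe set, 6.46, lay below the median over all probe sets on every CAF array, 6.73 to 6.74. That of the representative probe set, 7.29, lay above it. RMA gives no detection call, so both differences are limited by signal over background, which is not given here. Weighting the arrays by their estimated quality put the representative probe set past the threshold (-0.44, limma adjusted p = 0.0200), where 1600 genes were called instead of 137. Over all 22 alternatives, several of which cannot change the difference, that of Eln stayed between -0.55 and -0.38, with adjusted p from 0.0200 to 0.306.

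**Figure D1:**
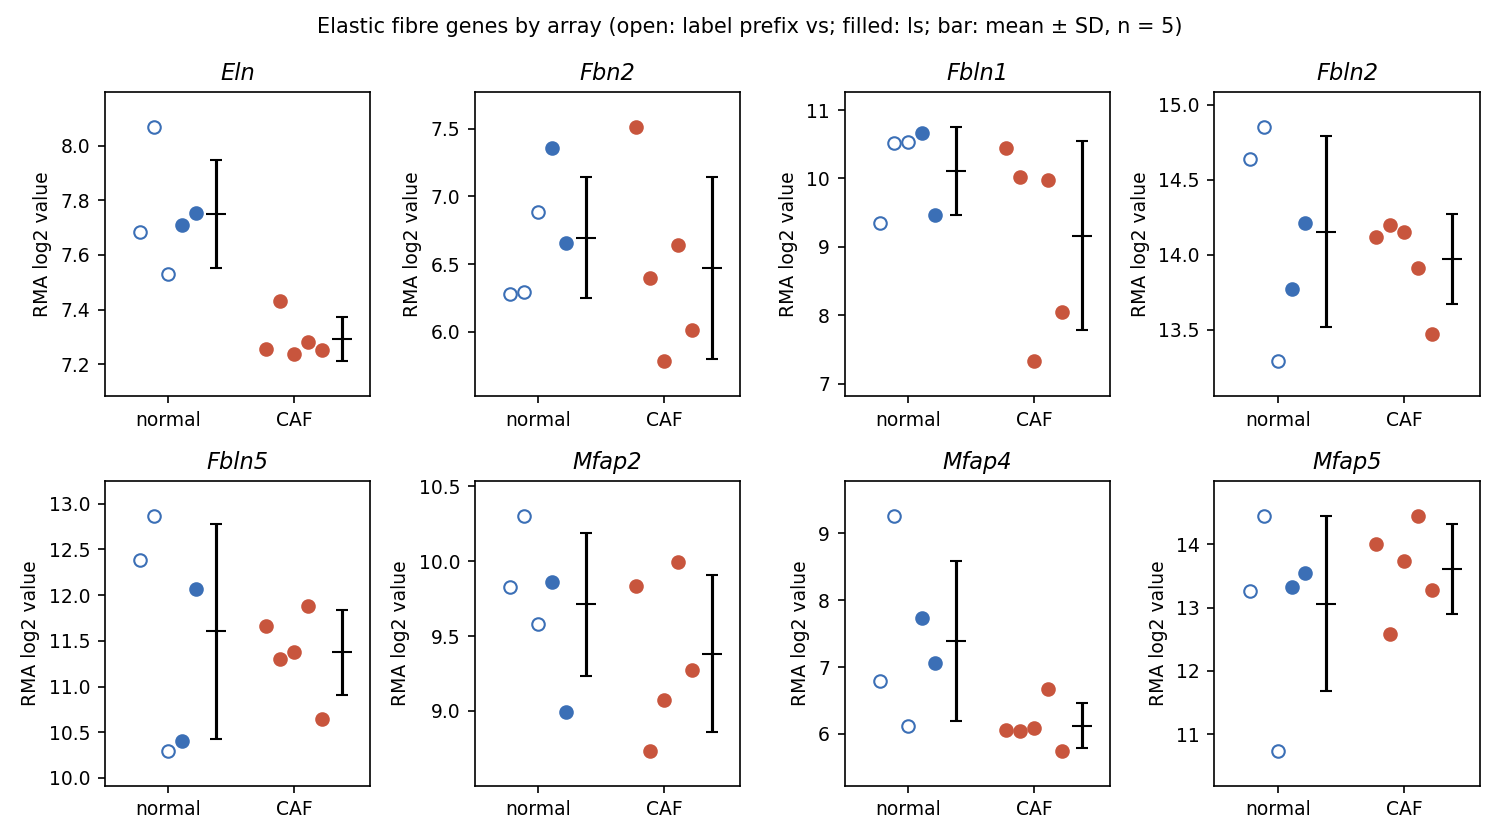
RMA log2 value (y axis, a separate scale per gene) of the 8 elastic fibre genes on each array; points are arrays in replicate order, open for label prefix vs and filled for ls, and bars are the mean ± SD of 5 arrays. The CAF points of Eln all lie below its normal points (7.24 to 7.43 against 7.53 to 8.07), whereas the groups overlap for the other 7 genes.

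The difference of Eln was nearly the same against both kinds of normal array. It was -0.44 ± 0.13 between CAF and the 2 normal arrays with prefix ls (limma adjusted p = 0.306) and -0.47 ± 0.12 between CAF and the 3 with prefix vs (adjusted p = 0.0860). These comparisons share the CAF arrays. In the first, 0 genes passed in limma, and 14.6% had an unadjusted p under 0.05, among them 1 member, Eln. In the second 1.57% passed, none of them a member, and 20.2% had an unadjusted p under 0.05, again with Eln as the 1 member. Without normal replicate 3 the second called Eln (-0.58 ± 0.11, adjusted p = 0.0197) among 1992 genes. The ls and the vs normal arrays themselves differed by -0.03 ± 0.15 for Eln.

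Fibrillin 2, a microfibril protein best known from the developing lung and other young tissues, did not separate the groups. Fbn2 had normal values of 6.28, 6.29, 6.89, 7.35 and 6.66 and CAF values of 7.51, 6.40, 5.78, 6.64 and 6.01. Both the highest and the lowest array were CAF arrays. The difference was -0.22 ± 0.33 (95% confidence interval -0.96 to 0.51, limma adjusted p = 0.716), and the second probe set had 0.00 ± 0.33. It was -0.53 ± 0.43 against ls normal arrays and -0.02 ± 0.38 against the vs normal arrays.

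The 3 fibulins measured, secreted glycoproteins of the matrix, all had negative differences, and none passed the test. Fbln1, fibulin 1, a component of elastic fibres and basement membranes, had normal values of 9.35, 10.52, 10.53, 10.67 and 9.46. On the CAF arrays it read 10.45, 10.02, 7.33, 9.98 and 8.05. CAF replicates 1, 2 and 4 lay within the normal range, and CAF replicates 3 and 5 lay below it. The means were 10.11 ± 0.65 and 9.17 ± 1.39 (SD, n = 5), with a difference of -0.94 ± 0.62 (95% confidence interval -2.33 to 0.44, limma adjusted p = 0.391). Without CAF replicate 3 the difference was -0.48, the lowest in size over the arrays left out, and without CAF replicate 1 it was -1.26.

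The other probe sets of Fbln1 had the same sign. The second differed by -0.62 ± 0.46, and on it CAF replicates 3 and 5 were again the lowest arrays, at 7.03 and 6.92. The third differed by -0.26 ± 0.10 (limma adjusted p = 0.160 over all probe sets). The SD of Fbln1 over the CAF arrays, 1.39, was above the 95th percentile of all genes in that group, 0.67, and its SD over the normal arrays, 0.65, was below the 95th percentile there, 1.02.

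Fbln2, fibulin 2, which binds elastin and fibrillin, had overlapping groups. Its values were 14.64, 14.85, 13.29, 13.77 and 14.21 in normal fibroblasts and 14.12, 14.20, 14.15, 13.91 and 13.47 in CAF. The CAF range lay inside the normal range, and the difference was -0.18 ± 0.29 (95% confidence interval -0.83 to 0.46, limma adjusted p = 0.734). The second probe set gave -0.10 ± 0.09, but its means of 5.21 in normal and 5.11 in CAF lay below every array median over all probe sets.

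Fbln5, fibulin 5, which tethers elastin to microfibrils and is needed for elastic fibres in mice, read 12.38, 12.86, 10.30, 10.40 and 12.07 in normal fibroblasts. In CAF it read 11.66, 11.30, 11.38, 11.88 and 10.64. All CAF arrays lay between the 2 low normal arrays, replicates 3 and 4, and the 3 high ones. The difference was -0.23 ± 0.51 (95% confidence interval -1.38 to 0.92, limma adjusted p = 0.819), and it turned to 0.09 without normal replicate 2 and to 0.14 ± 0.69 against the ls normal arrays alone, compared with -0.47 ± 0.60 against the vs arrays. The second probe set of Fbln5 gave -0.07 ± 0.15, with means of 6.3 in normal and 6.2 in CAF, below every array median over all probe sets.

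The microfibril-associated genes went in both directions, and Mfap4 had the largest difference of the 8 members. Mfap4 encodes a fibrinogen-domain protein that binds elastin and microfibrils and is made in lung and vessel walls. Its normal values were 6.78, 9.25, 6.11, 7.74 and 7.07 and its CAF values 6.05, 6.05, 6.08, 6.68 and 5.75. Normal replicate 2 stood well above the other arrays, while normal replicate 3 and CAF replicate 4 brought the groups to overlap. The signal was 2.41-fold higher in normal fibroblasts (-1.27 ± 0.50, 95% confidence interval -2.39 to -0.14, limma adjusted p = 0.182). The CAF mean, 6.12, lay below the median over all probe sets on every CAF array, 6.73 to 6.74. This fold is therefore limited by signal over background, which is not given here.

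One culture weighed heavily on the size of the Mfap4 difference: without normal replicate 2 it was -0.80, and with any other array left out it lay between -1.59 and -1.17. It was -1.28 ± 0.70 against ls and -1.26 ± 0.61 against the vs normal arrays. Mfap4 was read by a single probe set, so no other probe set could be compared.

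Mfap5, which encodes the microfibril glycoprotein MAGP-2, was the only member with a positive difference. It read 13.26, 14.44, 10.74, 13.32 and 13.54 on the normal arrays and 14.01, 12.58, 13.73, 14.44 and 13.27 on the CAF arrays. Normal replicate 3 was the lowest array and CAF replicate 2 the next lowest, and the other arrays of both groups lay between 13.26 and 14.44. The difference of 0.55 ± 0.63 (95% confidence interval -0.87 to 1.96, limma adjusted p = 0.636) turned to -0.04 without that array. The second probe set gave 0.62 ± 0.71, with normal replicate 3 again lowest at 9.14.

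Mfap2, which encodes the related glycoprotein MAGP-1 of the microfibril surface, had normal values of 9.83, 10.30, 9.58, 9.86 and 8.99. Its CAF values were 9.84, 8.74, 9.07, 9.99 and 9.28. The groups overlapped over most of their range, with a difference of -0.33 ± 0.29 (95% confidence interval -0.98 to 0.32, limma adjusted p = 0.528). It was -0.04 ± 0.38 against ls and -0.52 ± 0.33 against the vs normal arrays. The second probe set, whose _x_at suffix marks probes that may bind other transcripts, gave -0.40 ± 0.15 (adjusted p = 0.161).

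**Figure D2:**
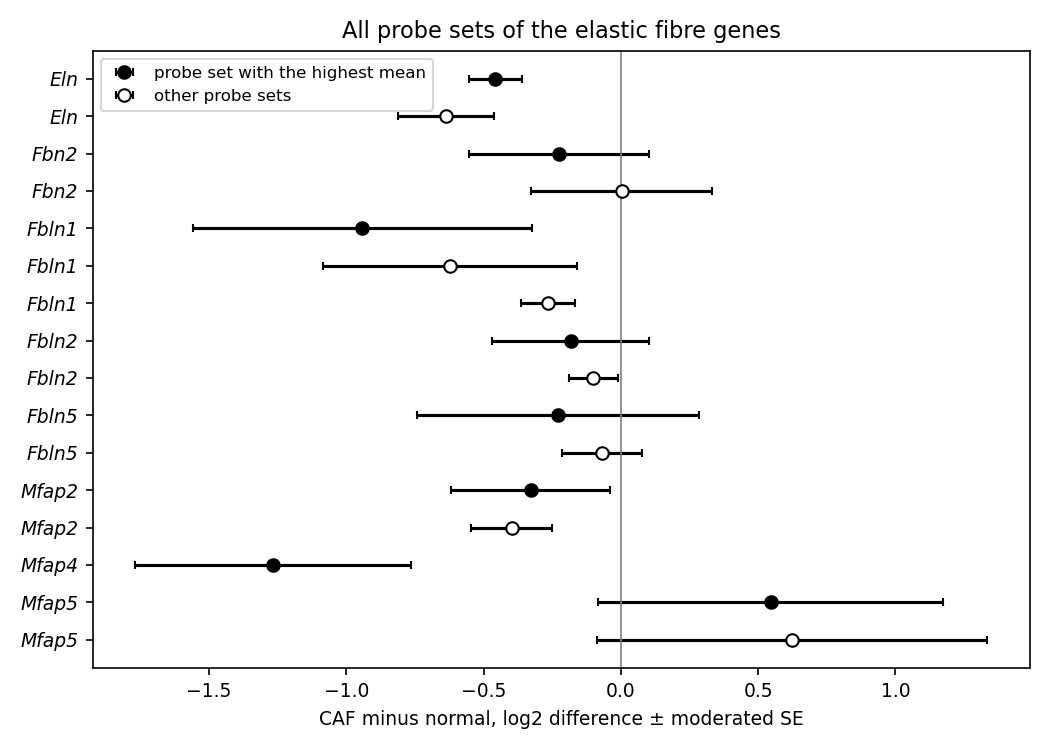
CAF minus normal (x axis, log2 difference ± moderated SE) for all 16 probe sets of the 8 genes; filled points are the probe sets with the highest mean, open points the others. Both Eln probe sets are negative (-0.46 and -0.64), and no probe set of a gene lies on the other side of 0 beyond its SE.

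**Figure D3:**
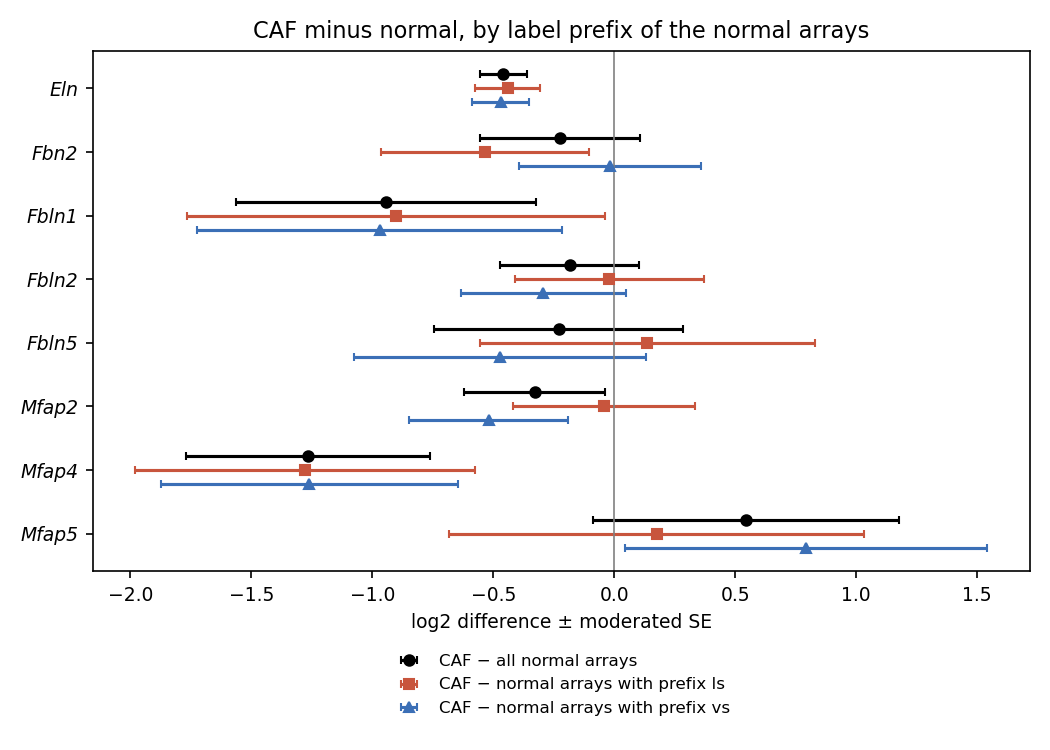
Log2 difference ± moderated SE (x axis) between CAF and all normal arrays (circles), the 2 normal arrays with prefix ls (squares) and the 3 with prefix vs (triangles). Eln, Fbln1 and Mfap4 have similar differences in all comparisons, and Fbln5 changes sign (0.14 against ls, -0.47 against vs).

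Label prefix moved no member past the threshold. Between the ls and the vs normal arrays 0 genes passed in limma; 7.88% had an unadjusted p under 0.05, with 0 of the 8 members among them. The member differences ran from -0.61 ± 0.75 (Fbln5) to 0.62 ± 0.94 (Mfap5), each smaller than its SE or close to it, with intervals too wide to show that the prefixes are alike.

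Much of the variation lay between cultures. Among the normal arrays, replicate 2 had the highest value for 6 of the 8 members (Eln, Fbln2, Fbln5, Mfap2, Mfap4 and Mfap5). Replicate 3 had the lowest value for 5 (Eln, Fbln2, Fbln5, Mfap4 and Mfap5). The same replicate 2 had the highest mean of fibroblast markers of all arrays, 13.5, and the lowest means of macrophage markers, 9.39, and mesothelial markers, 5.87. Replicate 3 had the lowest fibroblast mean of the normal group, 11.8, with a macrophage mean of 11.98 and a mesothelial mean of 10.54. Replicate 1 had higher means of both, 12.9 and 11.57. It was the second highest normal array for Fbln2 and Fbln5 and the middle one for Mfap2. For Fbn2 and Fbln1 it was the lowest normal array, and for Eln, Mfap4 and Mfap5 the second lowest. In CAF, replicate 5 had the lowest fibroblast mean, 11.46, and the lowest value for 3 members (Fbln2, Fbln5 and Mfap4). Its macrophage mean, 12.12, was the second highest of the CAF arrays. CAF replicate 3 was lowest for 3 others (Eln, Fbn2 and Fbln1), with a fibroblast mean of 11.95 and the lowest macrophage mean of the CAF arrays, 10.31. CAF replicate 1, with the highest fibroblast and macrophage means of the CAF arrays, 12.96 and 12.86, was lowest for no member. CAF replicate 4 was highest for 4 members (Fbln5, Mfap2, Mfap4 and Mfap5), with the lowest mesothelial mean of the CAF arrays, 7.21. The part of these markers in the members' values was not tested.

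**Figure D4:**
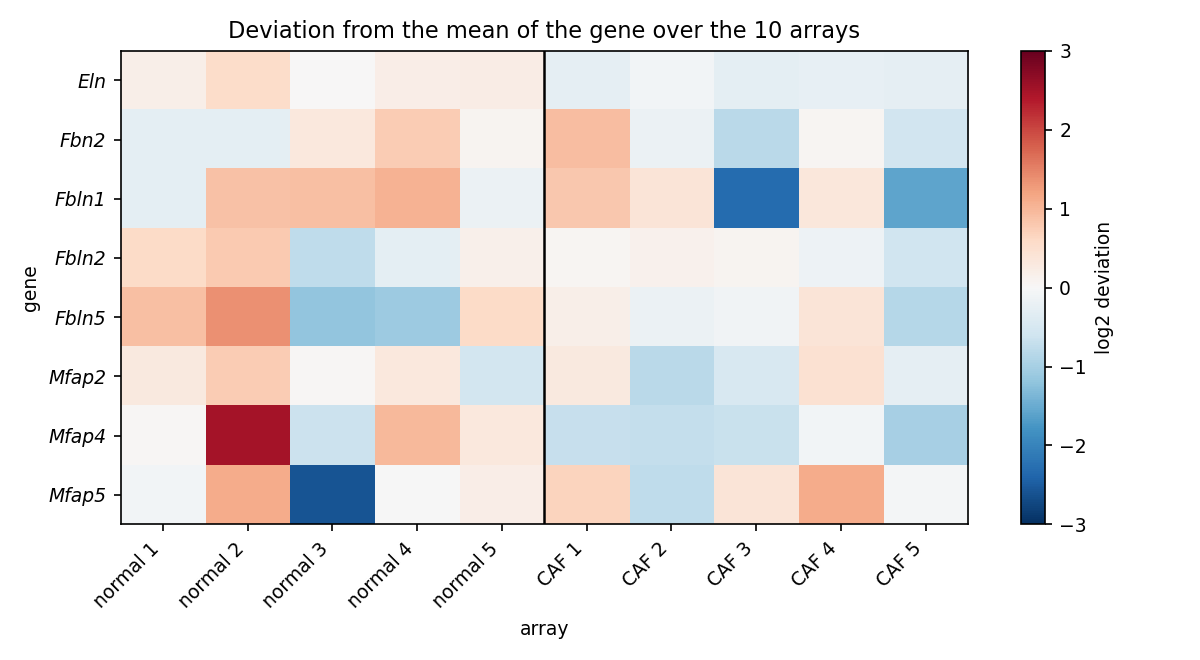
Deviation of each gene from its own mean over the 10 arrays (colour, log2 units; rows are genes, columns arrays, normal left of the line and CAF right). Normal replicate 2 is above the mean for Mfap4 and 6 other genes, normal replicate 3 is low for Mfap5 and Fbln5, and CAF replicates 3 and 5 are low for Fbln1.

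Members were also compared with each other across cultures, through deviations from their own group's mean, so that a difference between the groups could not produce a relation. Of 28 pairs 20 had a positive and 8 a negative Pearson correlation. No pair passed after adjustment over the 28 pairs (lowest Benjamini-Hochberg adjusted p 0.158 for Pearson and 0.219 for Spearman, exact permutation of arrays within groups, two-sided, n = 10 arrays). These relations were computed after the values had been seen.

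The closest pair was Fbln2 and Fbln5, with Pearson r = 0.906 (exact permutation p = 0.00562, adjusted 0.158) and Spearman rho = 0.745 (exact permutation p = 0.0566, adjusted 0.396). Without the 2 arrays farthest from the median of Fbln2, r was 0.838. Fbn2 and Fbln1 had r = 0.774 (exact permutation p = 0.0173, adjusted 0.161) and rho = 0.818 (exact permutation p = 0.0117, adjusted 0.219), and r was 0.765 without 2 arrays. Fbln5 and Mfap5 had r = 0.721 (exact permutation p = 0.0160, adjusted 0.161) and rho = 0.758 (exact permutation p = 0.0156, adjusted 0.219), with r = 0.768 without 2 arrays. Eln and Mfap4 had r = 0.851 (exact permutation p = 0.0230, adjusted 0.161) and rho = 0.564 (exact permutation p = 0.162, adjusted 0.566), but r fell to 0.103 without 2 arrays, so this relation rests on those arrays.

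The genes whose values were most like those of Eln over the 10 arrays were Diras1 (Pearson r = 0.990), Olfr159 (0.987), Cfap43 (0.984), Wnt10b (0.983) and Spns3 (0.970). They are the 5 highest of all genes, so no p is given. They had differences of -0.31, -0.25, -0.29, -0.26 and -0.21 between CAF and normal, each smaller in size than that of Eln. The array medians over all probe sets were 6.76 to 6.80 in the normal group and 6.73 to 6.74 in CAF, a shift in the same direction as these differences but smaller. In the same order, the mean levels of the 5 genes over the 10 arrays were 8.42, 5.89, 6.93, 7.44 and 7.84. That of Olfr159 lay below every array median, and no detection call is given. After quantile normalisation of the arrays the difference of Eln was -0.50 (limma adjusted p = 0.0705).

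Genes that work with the elastic fibre were described from 5 lists holding 53 genes, of which 47 were measured. Of these 1 rose (Mfap3l), 0 fell and 46 did not pass in limma, beside 0.753% of all genes that passed. An unadjusted p under 0.05 was held by 11, 5 higher and 6 lower, beside 22.3% of all genes. The median difference of the 47 was 0.10, with 28 positive, beside -0.04 over all genes, of which 57.3% were negative.

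Lysyl oxidases, the enzymes that cross-link elastin and collagen, held no gene that passed. Of 4 measured, 0 passed and 0 had an unadjusted p under 0.05, and the median was 0.05. Lox, the founding member, had 0.15 ± 0.27 (14.27 ± 0.54 in normal and 14.42 ± 0.38 in CAF, SD, n = 5; limma adjusted p = 0.769). Loxl1, which is required for elastic fibre upkeep in mice, had -0.52 ± 0.35 (13.44 ± 0.68 and 12.92 ± 0.50; adjusted p = 0.391), with -0.25 ± 0.46 against ls and -0.71 ± 0.40 against the vs normal arrays.

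Latent TGF-beta binding proteins sit on microfibrils and store the growth factor. Of the 7 genes of these proteins and their TGF-beta ligands 0 passed, 1 had an unadjusted p under 0.05 and the median was 0.30. Ltbp4, which also takes part in elastin deposition through Fbln5, was that gene. It read 9.86, 8.82, 8.44, 8.64 and 9.03 on the normal and 8.10, 8.48, 7.98, 7.84 and 8.14 on the CAF arrays. The groups overlapped by 1 array on each side (difference -0.85 ± 0.25, limma adjusted p = 0.0998). Ltbp4 had -0.73 ± 0.34 against ls and -0.93 ± 0.29 against the vs normal arrays, in the same direction as Eln. Tgfb1, with the smallest p among the positive differences, had 0.35 ± 0.25 (adjusted p = 0.434).

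Among 18 further elastic fibre and microfibril genes 1 rose, 0 fell and 17 did not pass, with a median of 0.02. Mfap3l, a relative of Mfap3 that is a membrane protein and not a fibre component, rose 4.27-fold. Its normal values were 6.08, 7.21, 5.56, 7.08 and 7.62 and its CAF values 9.06, 8.27, 9.09, 8.91 and 8.67. The groups of Mfap3l did not overlap (2.09 ± 0.38, limma adjusted p = 0.0483), as for 7.16% of all genes in either direction. Its other probe sets were higher by 0.75 ± 0.14 and 0.59 ± 0.12. Against the ls normal arrays Mfap3l differed by 1.45 ± 0.41 (adjusted p = 0.306) and against the vs arrays by 2.52 ± 0.36 (adjusted p = 0.0212). Leaving out normal replicate 1, 3 or 4 or CAF replicate 1, 3, 4 or 5 ended the call, with differences of 1.81 to 2.32 over all arrays left out. Emilin3, an elastin microfibril interface protein, had -0.29 ± 0.08 (adjusted p = 0.0900).

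The elastin receptor and elastases, which bind or break down elastin, had 0 of 13 genes past the test and 0 at an unadjusted p under 0.05, with a median of 0.14. Glb1, whose splice variant is the elastin-binding subunit of the receptor, had 0.43 ± 0.21 (limma adjusted p = 0.258). Elane, neutrophil elastase, had -0.75 ± 0.38 (adjusted p = 0.276), with CAF values wholly below the normal ones, as for 4.19% of all genes. Its means were 7.02 ± 0.93 in normal and 6.27 ± 0.09 in CAF (SD, n = 5). The CAF mean lay below the median over all probe sets on every CAF array. Mmp12, macrophage elastase, had the largest difference of the list, 1.77 ± 0.92 (adjusted p = 0.282; named after its value was seen), beside the macrophage marker list, of which 9 of 10 genes were also higher in CAF (median 0.35, none past the test), while the range of its mean on the CAF arrays lay inside that on the normal arrays. The part of those markers was not tested.

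Genes whose loss causes cutis laxa or arterial tortuosity through secretion or metabolism had 0 of 5 measured past the test, with a median of 0.44. At an unadjusted p under 0.05 stood 3 of them, all higher in CAF, beside 22.3% of all genes in either direction. Slc2a10, the transporter GLUT10 of arterial tortuosity syndrome, read 7.28, 8.09, 6.98, 7.70 and 7.59 in normal fibroblasts and 8.27, 8.15, 8.71, 8.96 and 8.38 in CAF. The groups did not overlap, as for 7.16% of all genes in either direction (540 of 18193 with CAF higher). The difference was 0.97 ± 0.22 (limma adjusted p = 0.0680). It passed without normal replicate 2 (1.11, adjusted p = 0.0499) and with array weights (0.96, adjusted p = 0.0306). On the second probe set of Slc2a10 the groups overlapped, with a difference of 0.47 ± 0.23. Aldh18a1, an enzyme of proline synthesis, had -0.35 ± 0.17 (adjusted p = 0.268).

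**Figure D5:**
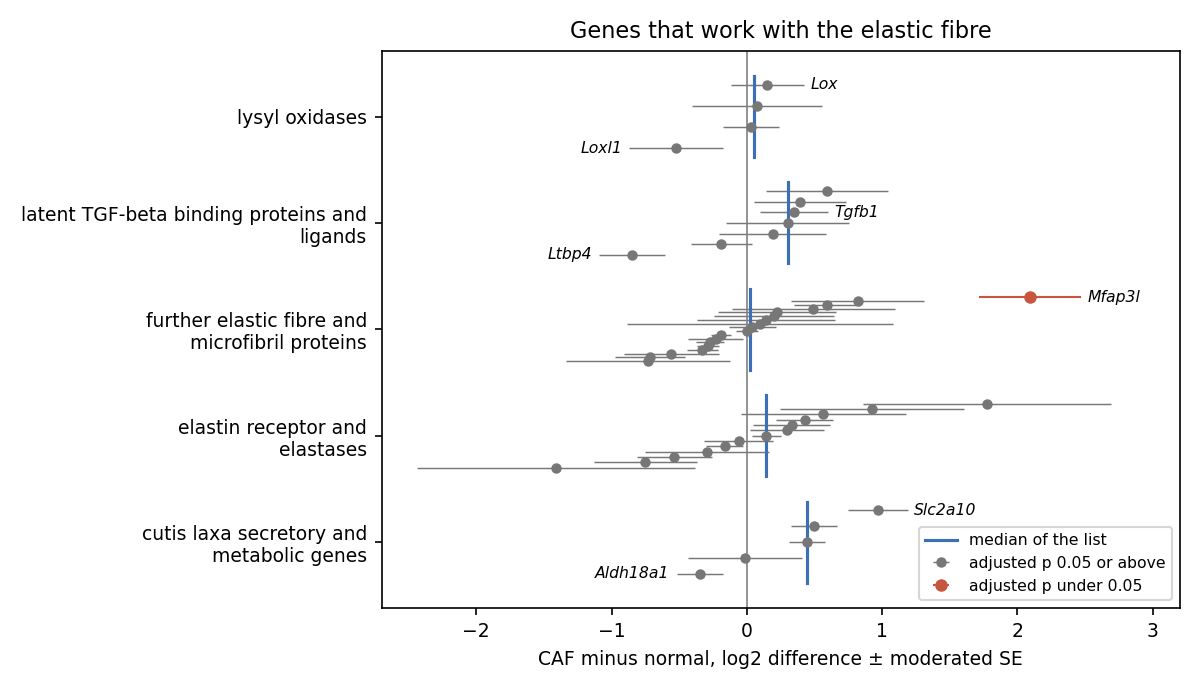
CAF minus normal (x axis, log2 difference ± moderated SE) for the 47 measured genes of 5 lists; the blue line is the median of each list, and a red point marks a limma adjusted p under 0.05. Mfap3l, at 2.09, is the only red point, and Ltbp4, at -0.85, has the lowest value of its list.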

How the data were processed

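Values on a log2 scale were read from the table deposited by the authors, with a column for each of the 10 arrays. The submitters' processing notes name RMA, Affymetrix Expression Console and limma; their versions are not given in the sources used here. RMA corrects background, normalises quantiles and summarises probe sets, so differences are relative to the same array, and it gives no detection call. Of 45101 probe sets, 64 controls were left out. Of the others 34945 had 1 gene symbol, 932 several and 9160 were not listed. Symbols were updated through Entrez numbers (34741 matched) to the gene table of assembly GRCm38.p6.

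Groups and replicate numbers came from the titles. All 18193 genes were fitted with limma 3.58.1 in R 4.3.3 (lmFit, eBayes), with group as the only term, or 3 groups of group and label prefix, and Benjamini-Hochberg adjustment over all genes; every adjusted p for a gene is from limma. The fit was tested on simulated data. Precision is limited by the number of arrays, 5 per group.

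Text names all members, the genes past the test or the smallest p per direction in each list, the 3 brightest markers per list and the 5 genes most like Eln. Members and lists were chosen with earlier results of these data known. Alternatives covered scaling, probe sets, dim genes, the test, array weights, label prefix, a replicate block and each array left out. Same-numbered arrays deviated together for 1 of the 5 numbers (correlation 0.34) and not for the other four, so numbers were not treated as pairs.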

Additional observations from a re-analysis of the deposited data

Results flagged for a closer look

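The Eln value of CAF replicate 2, at 7.43, stood apart from the other CAF arrays, the nearest of which read 7.28. Its distance to that array was 0.776 of the range of the group, above the critical value of 0.71 for 5 samples. The value lay towards the normal group but below its lowest array, 7.53. Of 22 groups of 5 values examined (8 members, Mfap3l, Ltbp4 and Slc2a10), 1 stood apart, and chance does this in about 5% of groups. Without that array the difference of Eln was -0.49, with a limma adjusted p of 0.0602.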

How the results depend on the processing

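Across 22 alternatives, 171 of 176 values of single members kept their direction and their side of the threshold. In several of these the direction could not change. The Wilcoxon test, trend and robust variance, a replicate block, singly tested probe sets and the dim-gene filter left each difference unchanged. Label prefix as a term and ls normal arrays only gave the same differences, so the tally holds fewer independent checks than values. Array weights called Eln. Fbln5 (-0.555 to 0.0851 with 1 array left out) reversed to 0.0851 without normal replicate 2. It reversed to 0.137 with label prefix as a term or with ls normal arrays only. Mfap5 (-0.035 to 0.892) reversed to -0.035 without normal replicate 3. The median of the members ran from -0.471 to -0.206. 0 members were called in each alternative (1 or 2 at an unadjusted p under 0.05) except with array weights, where 1 was called. With 1 array left out (added after the data were seen), 0 to 1 members were called against the vs normal arrays, and 0 against the ls normal arrays and between the 2 kinds of normal array.

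Counts of genes rested on the setting. Over all genes, against 137, limma called 285 with array medians centred, 429 of all probe sets tested singly, 81 above the 25th percentile of level, 46 with trend and robust variance, 1600 with array weights, 1 with ls normal arrays only and 0 with label prefix as a term (2649 at an unadjusted p under 0.05). The exact Wilcoxon test called 0 (3184 unadjusted). With 1 array left out the count was 0 to 166 (3003 to 4418 unadjusted), within 1.5 times of 137 only without normal replicate 2 (166) or CAF replicate 2 (153).

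Of the related genes, against 1, limma called 5 with array weights and 0 with quantile normalisation, with trend and robust variance, with label prefix as a term or with ls normal arrays only, and 0 to 2 with 1 array left out (5 to 17 unadjusted in these). The Wilcoxon test called 0 (9 unadjusted).

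With a replicate block limma called 0 of all genes (3017 at an unadjusted p under 0.05) and 0 of the related genes (12 unadjusted). Same-numbered arrays had correlations of 0.34, -0.53, -0.48, -0.056 and -0.086 in their deviations. The cause of these changes was not tested. RMA values carry no detection call, so small differences of dim probe sets such as those of Eln, Fbn2 and Mfap4 are limited by signal over background, which is not given here.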

Other observations

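The genes whose values ran closest to single members across the 10 arrays are given as a description, with no test. The closest to Mfap5 were Rcbtb1 (Pearson r = 0.958), Postn, the matricellular protein periostin (0.947), Thbs2, thrombospondin 2 (0.943), Nfat5 (0.937) and Ltbp2, a microfibril-binding protein (0.935). Their CAF minus normal differences were 0.06, 0.73, 0.71, 0.29 and 0.30. The closest to Fbln1 were Ccdc8 (0.932), Col6a2 (0.912), Cntln (0.908), Cdkn2c (0.901) and Col6a1 (0.900), with differences of -0.32, -1.08, -0.34, -0.74 and -0.91. These 2 members were picked after the values were seen, and all points share the 10 cultures and their cell makeup.

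Fbn2 values were set beside Xist, the RNA of the inactive X chromosome of female cells, after the values were seen and with no test. In the normal group Xist read 12.62 and 12.40 on replicates 3 and 4, where Fbn2 read 6.89 and 7.35, and 7.17 or less on the other arrays, where Fbn2 read 6.28, 6.29 and 6.66. In CAF, Xist read 12.23 and 11.74 on replicates 1 and 4, where Fbn2 read 7.51 and 6.64, and 6.83 or less on the others, where Fbn2 read 6.40, 5.78 and 6.01. Fbn2 was thus higher on the Xist-bright arrays in both groups without overlap. Fbln1 split the same way in the normal group only, and Mfap2 and Mfap5 in CAF only. Fbln5 split the same way in CAF but the opposite way in the normal group. There it read 10.30 and 10.40 on the Xist-bright arrays and 12.07 or more on the others. Fbln2 also split the opposite way in the normal group, at 13.29 and 13.77 against 14.21 or more. The share of all genes with such a split is not given here. The second probe set of Fbn2 read 6.34, 6.87, 7.30 and 6.16 on the Xist-bright arrays and overlapped the others in both groups.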
